A study of Drosophila melanogaster with 21 samples.

Results

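The report concerns 6 genes of Drosophila melanogaster whose RNA was nearly lost in embryos of the Top3b26 genotype and kept in embryos of 3 other genotypes. They are CG11034, mth, vap, Srp14, Dab and pst, 6 of the 17869 FlyBase genes in a total RNA count table of 23932 features. The genes were chosen on the counts themselves, as near absent in the 3 Top3b26 samples and present in the 9 other samples. Their low level in Top3b26 is therefore given as a description, with no test.

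Total RNA was sequenced from whole embryos labelled Top3b26, Y332F, delRGG and wild type, with 3 replicates each. Y332F is labelled Top3bY332F, a form named for a change of tyrosine to phenylalanine, and delRGG is labelled Top3b[delta]RGG, a form without the RGG part of the protein. RNA recovered by immunoprecipitation of the eGFP-tagged protein (RIP-seq) came from embryos of 3 Top3b-Y332F::eGFP samples and 6 Top3b::eGFP samples. The labels call the RIP RNA polyadenylated. The series title and design name the RNA targets of topoisomerase 3 beta and the stress on neurons that lack its enzymatic activity. Embryo age, the lesion of Top3b26 and the genetic background of the lines are not given in the sources used here, so the allele and the background of its line cannot be told apart. Nothing in the labels says that replicates came from separate collections, so p-values measure the spread between these samples, which may be technical.

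Topoisomerase 3 beta is a type IA topoisomerase that passes single strands through one another, and its substrates include both DNA and RNA. The 6 genes belong to no common pathway. mth (methuselah) encodes a G protein-coupled receptor, and mutants of this gene are known for long life and resistance to stress. Dab (Disabled) encodes an adaptor protein that acts with the Abl tyrosine kinase in axon guidance, and vap (vacuolar peduncle) a GTPase-activating protein that switches off Ras, known for degeneration of the adult brain when mutated. Srp14 encodes a subunit of the signal recognition particle, which brings ribosomes that make secreted proteins to the endoplasmic reticulum. pst (pastrel) is known for natural variation in resistance to Drosophila C virus, and CG11034 is predicted to encode a peptidase of the dipeptidyl peptidase 4 family.

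Total counts ranged from 22400118 to 31125584 per sample, and levels are given as CPM, the count scaled to a common library size. Top3beta itself had 725, 446 and 539 counts in Top3b26, against 2970, 2881 and 2427 in wild type, and stood at 19.4% of the wild-type level. Embryo markers were present in all genotypes. The 11 adult markers summed to 0.190 to 12.1 CPM (median 0.450) in Top3b26 and 0.284 to 34.2 CPM (median 0.303) in Y332F. In delRGG they summed to 0.612 to 1.06 CPM (median 0.774) and in wild type to 0.510 to 0.896 CPM (median 0.844). The yolk protein gene Yp1 averaged 1.73 ± 2.78 CPM in Top3b26 and 3.88 ± 6.58 CPM in Y332F (SD, n = 3 each). It averaged 0.127 ± 0.0950 CPM in delRGG and 0.0800 ± 0.0780 CPM in wild type, and was not tested. Cp15, Cp16 and Acp26Aa had 0 counts in every sample. Genes of late embryonic muscle, nerve and cuticle differed strongly between the genotypes, and their values stand beside the results they touch. Bulk samples cannot tell fewer cells of a type from less RNA per cell.

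The receptor gene mth (FBgn0023000, chromosome 3L) had 14, 8 and 8 counts in the Top3b26 replicates, or 0.450, 0.379 and 0.324 CPM. It had 36.3, 36.9 and 40.8 CPM in Y332F, 25.8, 28.9 and 30.4 CPM in delRGG and 29.9, 29.2 and 35.5 CPM in wild type. All Top3b26 samples lay near the bottom of the scale and the other genotypes within a narrow band. The mean in Top3b26 was 1.22% of that in wild type, or 82.0-fold lower.

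Dab (FBgn0000414, chromosome 3L), the Abl partner, had 226, 74 and 117 counts in Top3b26, or 7.27, 3.51 and 4.74 CPM. Its levels were 279, 309 and 290 CPM in Y332F, 288, 256 and 225 CPM in delRGG and 262, 231 and 189 CPM in wild type. The Top3b26 mean was 2.28% of the wild-type mean. Dab varied most among the 6 genes within Top3b26, where the highest sample was 2.07 times the lowest, and replicate 1 was the highest.

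The Ras regulator vap (FBgn0003969, chromosome X) had the highest share of its wild-type level, though Srp14 had the highest share against Y332F and delRGG. vap had 255, 227 and 222 counts in Top3b26, or 8.20, 10.8 and 8.99 CPM. In Y332F it had 156, 169 and 192 CPM, in delRGG 151, 150 and 185 CPM and in wild type 127, 134 and 137 CPM. Its Top3b26 mean of 9.32 ± 1.31 CPM was 7.04% of the 132 ± 5.22 CPM in wild type (SD, n = 3 each), so at least 222 reads per library still fell on the gene.

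Srp14 (FBgn0038808, chromosome 3R), of the signal recognition particle, had 57, 40 and 44 counts in Top3b26, or 1.83, 1.90 and 1.78 CPM. Levels were 24.1, 28.5 and 21.2 CPM in Y332F, 28.7, 31.0 and 30.5 CPM in delRGG and 24.4, 29.9 and 31.5 CPM in wild type. The Top3b26 mean was 6.43% of wild type, and the replicates were the closest of the 6 genes, with the highest 1.06 times the lowest.

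The virus resistance gene pst (FBgn0035770, chromosome 3L) had 20, 17 and 21 counts in Top3b26, or 0.643, 0.806 and 0.851 CPM. Unlike the other 5 genes it also differed widely between the genotypes that kept it, with 28.4, 26.4 and 30.1 CPM in Y332F, 35.4, 28.2 and 31.9 CPM in delRGG and 7.80, 10.4 and 15.9 CPM in wild type. The Top3b26 mean was thus 2.71% of Y332F, 2.41% of delRGG and 6.74% of wild type. Without wild-type replicate 3, the highest of its group, it was 8.40% of wild type.

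CG11034 (FBgn0031741, chromosome 2L), the predicted peptidase gene, came closest to absence. Each Top3b26 library held 1 count, 3 in all. There were 424, 431 and 468 counts in Y332F, 692, 604 and 604 in delRGG and 504, 506 and 586 in wild type. The pooled counts put Top3b26 at 0.178% of wild type, with a 95% exact interval from 0.0367% to 0.522% that covers counting error only.

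Over the 6 genes the Top3b26 mean lay between 0.183% and 7.04% of wild type, with a median of 4.35%. CG11034, mth and Dab had the lowest shares against each of the other genotypes, while the share of pst was 6.74% of wild type and 2.41% of delRGG. The whole-table fit called 33.7% of 10238 tested features lower in Top3b26 than in wild type. The 6 genes were chosen on these columns, so nothing is read from that share, nor from the 71% of features whose Top3b26 and wild-type samples did not overlap.

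**Figure D1:**
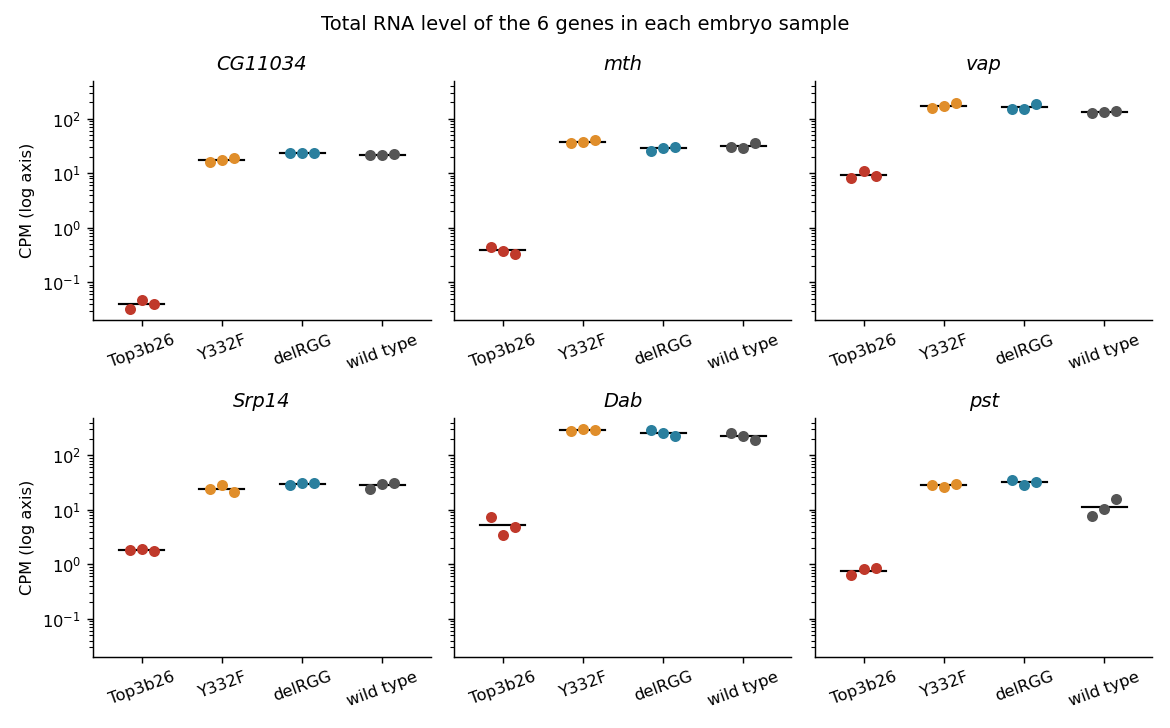
Total RNA level of the 6 genes in CPM (logarithmic axis) in each of 12 embryo samples by genotype, with Top3b26 on the left and wild type on the right; points are samples and bars are means of 3. Every Top3b26 point lies far below the 9 others, at 0.0322 to 0.0474 CPM for CG11034 and 8.20 to 10.8 CPM for vap, and pst is lower in wild type than in Y332F and delRGG.

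How unusual the pattern was in the table was described with a gap, the log2 ratio of the lowest CPM among the 9 other samples to the highest CPM among the 3 Top3b26 samples, after adding 0.5 to each. All Top3b26 samples lay below all others for 737 of the tested features, or 7.2%, mostly by a small margin. The gap reached 1 in 43 features. CG11034 (4.92), mth (4.79) and Dab (4.61) had the 3 widest gaps of all 23932 features. vap (3.50) ranked 5, Srp14 (3.18) ranked 7 and pst (2.62) ranked 9.

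The features between them were GstE1 (3.50), CG30428 (3.30) and CG7408 (2.84), and those just outside pst were Dbp80 (2.44), CG10916 (2.34) and Top3beta itself (2.00). No line drawn on the gap alone separates the 6 genes from these. GstE1, a glutathione S-transferase, had 0.643, 0.237 and 0.243 CPM in Top3b26, against 23.8, 25.5 and 25.2 CPM in wild type. Y332F (12.4, 12.8 and 14.3 CPM) and delRGG (17.9, 17.5 and 16.8 CPM) lay in between, so GstE1 was lower in all mutants and lowest in Top3b26. CG30428 and CG7408 had 0 counts in all Top3b26 samples, where 3 counts would be 0.0965 to 0.142 CPM. In wild type CG30428 had 6.54, 4.42 and 8.49 CPM and CG7408 had 4.98, 4.29 and 5.45 CPM. Dbp80, a DEAD-box RNA helicase of mRNA export, kept 13.6, 16.3 and 15.8 CPM in Top3b26, against 116, 104 and 124 CPM in wild type. These genes were picked by the gap and have no test either.

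The gap was also counted with each other genotype as the low one. At the gap of pst or wider, Top3b26 alone was low in 9 features and Y332F alone in 0. delRGG alone was low in 1, CG15312, and wild type alone in 3, CG5568, phr6-4 and Gnptab. The mirror pattern, a level in Top3b26 that far above all other samples, was found in 1 feature, CG17470. Wild type alone was that high in 3, Cyp4p2, narya and CG13073, and Y332F and delRGG alone in 0 each. At a gap of 1 or wider, Top3b26 alone was low in 43 features and high in 22, and wild type alone low in 9 and high in 34. Of the 9 features low in Top3b26 alone, 6 are the genes described here, and the gap of one of them set the limit, so the counts support no comparison between genotypes.

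**Figure D2:**
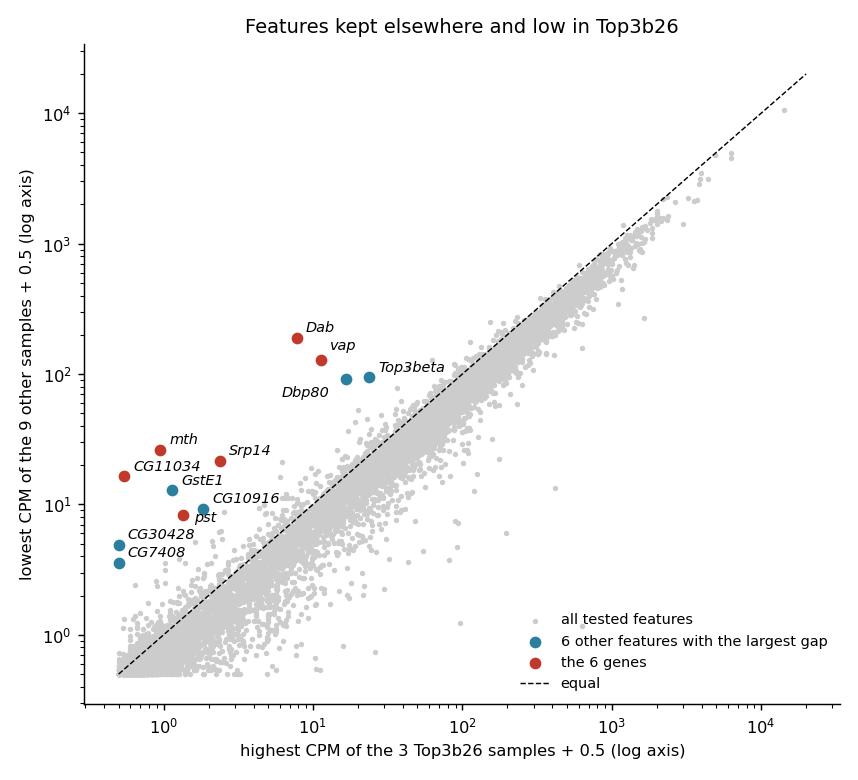
Lowest CPM of the 9 other samples plus 0.5 against highest CPM of the 3 Top3b26 samples plus 0.5, both on logarithmic axes, for all 10238 tested features (grey), the 6 genes (red) and the 6 other features with the widest gap (blue); the dashed line marks equal values. CG11034, mth and Dab lie farthest above the line, with gaps of 4.92, 4.79 and 4.61 on the log2 scale.

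The gene table of RefSeq (assembly Release 6 plus ISO1 MT) places 3 of the genes on chromosome 3L and 1 each on X, 2L and 3R. Top3beta lies on X, as does vap, and neither is among the 2 nearest genes on either side of the other. To see whether the low level extended beyond each gene, these 2 neighbours on either side were examined, 24 in all. Of these, 17 were tested. Between Top3b26 and wild type, 8 were higher, 2 lower and 7 not called by edgeR, while 23.5% of all tested features were called higher and 33.7% lower.

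The lower neighbours were mthl9 and mthl10, receptor genes of the methuselah family beside mth. mthl10 had 2.06, 1.80 and 2.15 CPM in Top3b26, against 6.50, 8.96 and 17.4 CPM in wild type, and fell by 2.45 on the log2 scale (SE 0.45, edgeR adjusted p 0.00241). It stood at 3.60, 2.56 and 4.61 CPM in Y332F and fell there too (-1.61, edgeR adjusted p 0.0166). mthl9 had only 18, 4 and 3 counts in Top3b26, and 1.73, 2.51 and 7.09 CPM in wild type, where replicate 3 was the highest. It changed by -3.61 in Top3b26 (SE 0.88, edgeR adjusted p 0.00625) and by -2.54 in Y332F (edgeR adjusted p 0.0302). Both thus fell in Y332F as well, where the choice of the genes required mth to be present. On the other side of mth, Cdc5, of the spliceosome, had 96.3, 90.3 and 77.4 CPM in Top3b26 and 77.7, 81.8 and 70.4 CPM in wild type, and was not called (0.20, edgeR adjusted p 0.239).

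Every tested neighbour of the other genes lay between -0.74 and 1.73 on the log2 scale. The nearest gene to one side of pst is asRNA:CR45822, a low-count antisense RNA gene with 0.322, 0.142 and 0.324 CPM in Top3b26 and 0.0422, 0.127 and 0.0779 CPM in wild type. It rose by 1.64 in Top3b26 (SE 0.57, edgeR adjusted p 0.0298), by 3.36 in Y332F (SE 0.55, edgeR adjusted p 0.00274) and by 3.66 in delRGG (SE 0.55, edgeR adjusted p 0.00327). On the other side asRNA:CR45835 rose by 1.51 in Top3b26 (SE 0.40, edgeR adjusted p 0.00866). It also rose by 1.94 in Y332F (edgeR adjusted p 0.00752) and by 1.76 in delRGG (edgeR adjusted p 0.0259). CTCF, an insulator protein gene near pst, rose by 0.45 in Top3b26 (edgeR adjusted p 0.00842) and by 0.33 in Y332F (edgeR adjusted p 0.0446). Sec63 on the other side of pst changed by 0.20 in Top3b26 (edgeR adjusted p 0.111). exd, a Hox cofactor gene near vap, rose by 0.19 in Top3b26 (edgeR adjusted p 0.0302) and was not called in Y332F (0.04, edgeR adjusted p 0.606). CG8939, next to vap, changed by -0.08 in Top3b26 (edgeR adjusted p 0.686). CG12698 on the other side of vap had 2.93, 3.65 and 2.55 CPM in Top3b26 and 0.844, 0.722 and 1.17 CPM in wild type, a rise of 1.73 (SE 0.45, edgeR adjusted p 0.00842). In Y332F it fell by 1.39 (edgeR adjusted p 0.0360). To one side of CG11034, CG7239 rose by 0.50 in Top3b26 (edgeR adjusted p 0.00390) and CG14005, the next gene, by 0.39 (edgeR adjusted p 0.00644). Both also rose in Y332F, CG7239 by 0.40 (edgeR adjusted p 0.0155) and CG14005 by 0.37 (edgeR adjusted p 0.0139). EloB, the elongin subunit gene next to Srp14, changed by 0.27 in Top3b26 (edgeR adjusted p 0.0636). Muc14A near vap (-0.74, edgeR adjusted p 0.135) and CG5412 (0.30, edgeR adjusted p 0.113) and CG16953 (-0.21, edgeR adjusted p 0.150) near Srp14 were not called in Top3b26. For Dab none of the 4 neighbours had enough counts to test, and the other side of CG11034 held 2 noncoding RNA genes with 0 counts in every sample.

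Another gene of the table overlaps 2 of the 6. Ptpmeg, a tyrosine phosphatase gene that overlaps mth, had 349, 380 and 364 CPM in Top3b26, against 291, 277 and 264 CPM in wild type. It rose by 0.39 (SE 0.06, edgeR adjusted p 0.000979), while mth stood at 1.22% of wild type. CG34008, which overlaps Srp14, had 9.26, 11.4 and 10.1 CPM in Top3b26 and 3.63, 4.59 and 4.75 CPM in wild type, a rise of 1.24 (SE 0.25, edgeR adjusted p 0.00305). In Y332F it was not called (0.53, edgeR adjusted p 0.102). How the counting shared reads between overlapping genes, and whether it used the strand, is not given in the sources used here, so the values of mth and Srp14 and of these partners are uncertain to that extent. The other 4 genes are overlapped by none.

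**Figure D3:**
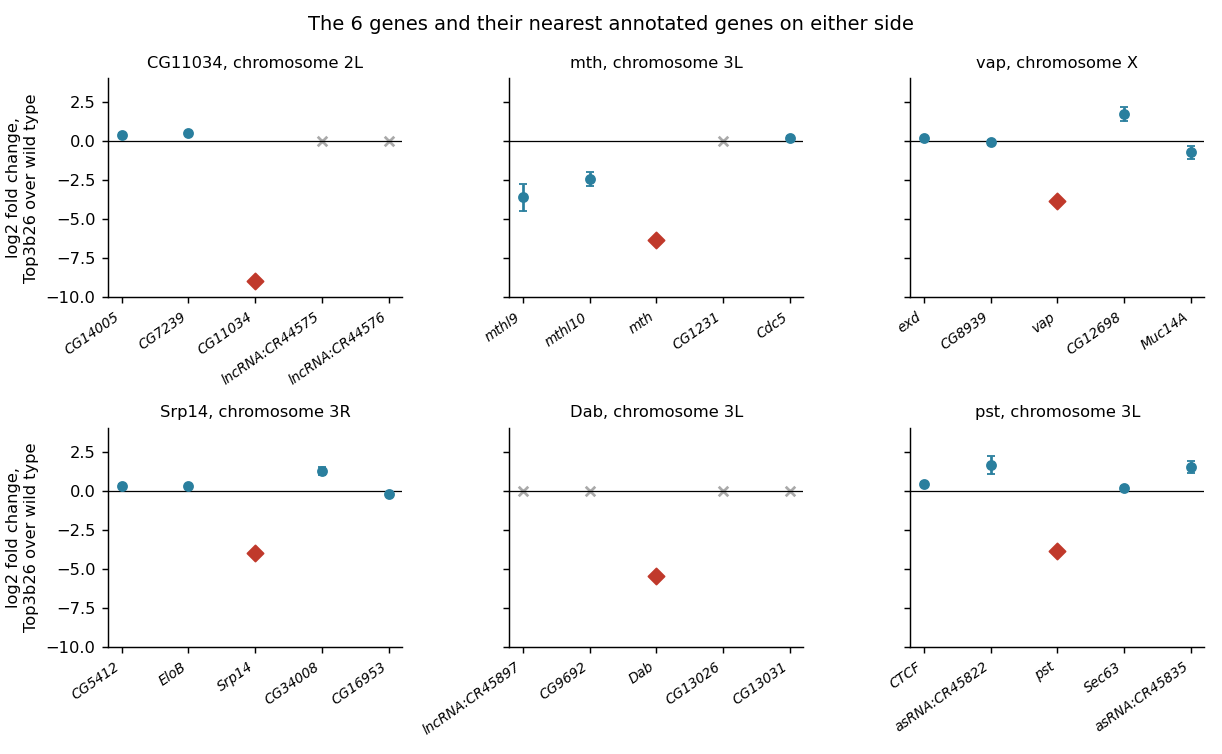
Log2 fold change of Top3b26 over wild type in total RNA for each of the 6 genes (red diamonds) and the 2 nearest genes on either side (blue points, bars are standard errors), in their order along the chromosome; grey crosses mark genes with too few counts to test, drawn at 0. Each gene lies below its tested neighbours (Dab has none), and the lower neighbours are mthl9 (-3.61) and mthl10 (-2.45) beside mth.

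Among the genotypes that kept the genes, the choice required presence and no particular level, so levels there were compared with edgeR over all 10238 features. In Y332F against wild type, 2 of the 6 genes were called, both higher, where 15.3% of all features were called higher, 28.2% lower and 43.5% in either direction. The groups did not overlap for 5 of the 6 genes, all but Srp14, and for 57.2% of all features. The median log2 fold change was 0.32 over the 6 genes and -0.04 over all features. pst rose to 28.3 ± 1.87 CPM in Y332F, against 11.4 ± 4.12 CPM in wild type (SD, n = 3 each), by 1.31 on the log2 scale (SE 0.23, edgeR adjusted p 0.0037). Its groups did not overlap. vap rose to 172 ± 18.2 CPM, against 132 ± 5.22 CPM (SD, n = 3 each), by 0.38 (SE 0.11, edgeR adjusted p 0.0224).

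The vap call in Y332F was lost without Y332F replicate 3 (0.30, edgeR adjusted p 0.0601), without wild-type replicate 3 (0.40, edgeR adjusted p 0.054) and with a late embryonic marker score as covariate (0.18, edgeR adjusted p 0.657). Of the genes not called in Y332F, Dab differed by 0.37 (SE 0.18, edgeR adjusted p 0.127), mth by 0.27 (SE 0.13, edgeR adjusted p 0.105) and Srp14 by -0.22 (SE 0.14, edgeR adjusted p 0.229). CG11034 differed by -0.32 (SE 0.13, edgeR adjusted p 0.0664). All 3 Y332F samples of CG11034, at 16.05, 17.5 and 19.1 CPM, lay below those of wild type, at 21.3, 21.5 and 22.8 CPM. CG11034 was called with DESeq2 (-0.30, adjusted p 0.0284), with total-count normalization (-0.40, edgeR adjusted p 0.0259) and among features with a mean of at least 50 counts (-0.37, edgeR adjusted p 0.0251).

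In delRGG against wild type, 1 of the 6 genes was called, where 5.87% of all features were, 3.17% higher and 2.7% lower. The groups did not overlap for 3 genes, CG11034, vap and pst, and for 24.6% of all features. pst rose to 31.9 ± 3.62 CPM in delRGG, against 11.4 ± 4.12 CPM in wild type (SD, n = 3 each), by 1.48 on the log2 scale (SE 0.23, edgeR adjusted p 0.00389). With these 2 groups fitted alone the change was 1.55 and not called (edgeR adjusted p 0.0602). The other 5 genes changed by -0.15 to 0.29 with standard errors of 0.11 to 0.18, and none was called. vap, at 0.29, had an adjusted p of 0.173 in edgeR, and its groups did not overlap. Both comparisons use the same wild-type samples.

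Between delRGG and Y332F, edgeR called 0 of the 6 genes, where it called 2.46% of all features, 1.29% higher and 1.17% lower. Unadjusted p-values were under 0.05 for 2 genes, and DESeq2 called the same 2. CG11034 had 23.4 ± 0.348 CPM in delRGG and 17.5 ± 1.53 CPM in Y332F (SD, n = 3 each), a difference of 0.41 (SE 0.13, edgeR adjusted p 0.12; DESeq2 adjusted p 0.0173). mth had 28.4 ± 2.39 CPM in delRGG and 38.0 ± 2.47 CPM in Y332F (SD, n = 3 each), a difference of -0.42 (SE 0.13, edgeR adjusted p 0.111; DESeq2 adjusted p 0.0145). Without delRGG replicate 3, edgeR called mth (-0.49, adjusted p 0.0398). The groups did not overlap for these genes and Srp14, 3 of 6, and for 20.5% of all features. pst differed by 0.17 (SE 0.22), vap by -0.09 (SE 0.11), Dab by -0.19 (SE 0.18) and Srp14 by 0.29 (SE 0.14), and none was called.

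The order of mean levels differed from gene to gene above the common low of Top3b26. delRGG was highest for CG11034, Srp14 and pst, and Y332F for mth, vap and Dab.

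The late embryonic markers moved with the genotypes and were set beside the 6 genes. Their 19 genes include the muscle genes Mhc and Mlc2, the neuronal gene Syt1 and the melanin and cuticle gene Ddc, and 18 had counts in Top3b26, with Cpr47Ef at 0. Their summed level was 131 to 359 CPM in Top3b26, 302 to 547 CPM in Y332F, 299 to 3195 CPM in delRGG and 2022 to 6985 CPM in wild type. Of 17 tested, 17 fell in Top3b26 and 17 in Y332F against wild type, and 0 were called in delRGG. Maternal markers such as bcd, osk and smg summed to 13042 to 14330 CPM in Top3b26, 12882 to 13638 CPM in Y332F, 11312 to 13017 CPM in delRGG and 10094 to 11038 CPM in wild type.

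A late score, the mean log2(CPM + 0.5) of the late markers, ran from 1.74 to 2.78 in Top3b26, 2.56 to 3.25 in Y332F, 2.49 to 5.37 in delRGG and 4.86 to 6.35 in wild type. The score of delRGG replicate 3 (2.49) and of Y332F replicate 2 (2.56) lay inside the range of Top3b26, below Top3b26 replicate 1 (2.78). Top3b26 replicates 2 (1.74) and 3 (1.94) scored below all samples of the other genotypes. The genes were chosen for their presence in all samples outside Top3b26, so their levels there are a description from single libraries, and the part of the late markers in the low level of Top3b26 was not tested. In delRGG replicate 3, mth stood at 96.6%, Dab at 98.8%, CG11034 at 109% and Srp14 at 107% of the wild-type mean. In Y332F replicate 2 they stood at 117%, 136%, 80.0% and 99.7%. In Top3b26 replicate 1 the same genes stood at 1.43%, 3.20%, 0.147% and 6.42%.

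**Figure D4:**
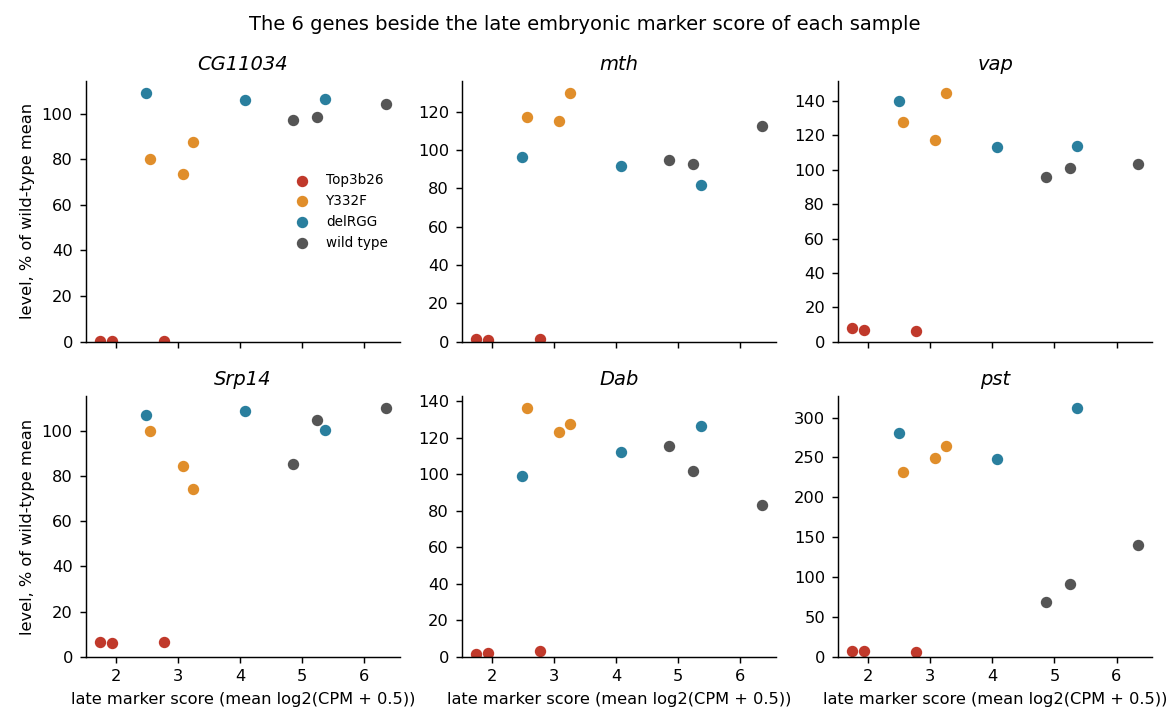
Level of each of the 6 genes as a percentage of the wild-type mean against the late embryonic marker score of the sample, mean log2(CPM + 0.5), for 12 samples coloured by genotype. Top3b26 points lie at the bottom in every panel. delRGG replicate 3 (score 2.49) and Y332F replicate 2 (score 2.56) lie near or above the wild-type mean. Their scores are below that of Top3b26 replicate 1 (2.78), while Top3b26 replicates 2 (1.74) and 3 (1.94) score below all samples of the other genotypes. CG11034 in Y332F replicate 2 is lower, at 80.0% of the wild-type mean. The genes were chosen as present in all samples outside Top3b26, and the part of the late markers was not tested.

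The RIP samples were not used to choose the genes. The RIP table lists 2168 genes, each with at least 2 transcripts, and holds CG11034, mth, vap and Dab. Srp14 and pst have no row there and were not analysed in RIP. Ranked by RIP value, 44 of the 2168 genes lay below CG11034 and 93 below mth, against 1465 below vap and 1765 below Dab. Between the Y332F form and the unmutated tagged protein, limma called 2 of the 4 genes, 1 higher and 1 lower, where 29.8% of all RIP genes were called, 13% higher and 16.7% lower.

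Dab was recovered less with the Y332F form. Its scaled RIP value was 494, 506 and 665 in the Top3b-Y332F::eGFP samples and ran from 763 through a median of 1284 to 1710 in the 6 Top3b::eGFP samples. The groups did not overlap, as for 29.3% of all RIP genes. The change was -1.14 on the log2(value + 1) scale (SE 0.24, limma adjusted p 0.00659). Top3b::eGFP samples 1 and 2, at 906 and 763, lay below samples 3 to 6, at 1262 to 1710. With 1 sample left out at a time the change ran from -1.28 to -1.04.

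mth was recovered more with the Y332F form, at 123, 122 and 128 in the Top3b-Y332F::eGFP samples, against 53.3 to 98.9 with a median of 68.0 in the Top3b::eGFP samples. Its groups did not overlap either. The change was 0.84 (SE 0.23, limma adjusted p 0.0173). The call was lost without any 1 of the 3 Top3b-Y332F::eGFP samples (limma adjusted p 0.0562 to 0.0622) and without the 2 samples, 1 per group, whose columns are named in another way than the rest (limma adjusted p 0.0775). With the deposited values left unscaled, neither gene was called (mth 0.91, limma adjusted p 0.322; Dab -1.07, limma adjusted p 0.142).

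vap had RIP values of 762, 683 and 494 in the Top3b-Y332F::eGFP samples and 619 to 1048, median 858, in the Top3b::eGFP samples. The difference of -0.34 (SE 0.20, limma adjusted p 0.202) was within the overlap of the groups. CG11034 had 57.5, 46.4 and 55.0 in the Y332F form and 40.1 to 60.4, median 51.5, in the unmutated form (0.08, SE 0.27, limma adjusted p 0.843).

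The RIP table gives single transcripts, and these bear on whether 1 isoform carries a change. Both listed Dab transcripts were lower in the Y332F form. FBtr0305086 averaged 286 ± 92.2 (SD, n = 3) in Top3b-Y332F::eGFP and 759 ± 345 (SD, n = 6) in Top3b::eGFP. FBtr0075318 averaged 269 ± 6.26 (SD, n = 3), against 509 ± 166 (SD, n = 6). Neither was called among all transcripts (-1.27, limma adjusted p 0.104, and -0.83, limma adjusted p 0.0979). Both mth transcripts were higher, FBtr0306850 at 32.2 ± 4.35 (SD, n = 3) against 10.7 ± 4.01 (SD, n = 6) and FBtr0072570 at 92.2 ± 1.98 (SD, n = 3) against 59.7 ± 14.9 (SD, n = 6), and neither was called (1.61, limma adjusted p 0.179, and 0.69, limma adjusted p 0.232). The 5 vap transcripts changed by -0.69 to 0.17. The CG11034 transcripts moved apart, FBtr0342609 by 1.89 (SE 1.19) and FBtr0344769 by -0.79 (SE 0.58), with standard errors too wide for a call (limma adjusted p 0.369 and 0.433).

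Set beside total RNA of the untagged genotypes, Dab differed by 0.37 and mth by 0.27 between Y332F and wild type, and neither was called. The tables were normalized separately and hold untagged and tagged genotypes, so no difference between them was tested.

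**Figure D5:**
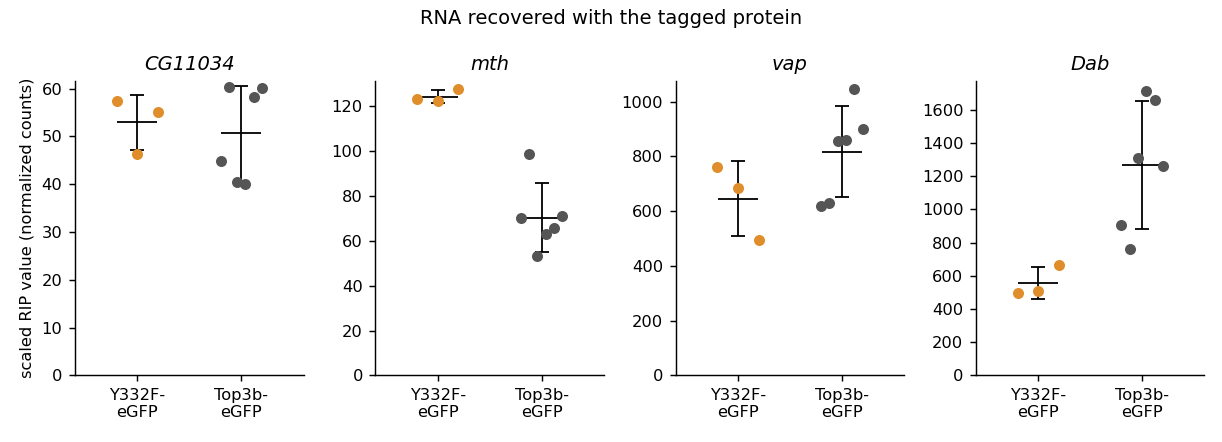
Scaled RIP value (normalized counts per gene, linear axis from 0) of the 4 genes listed in the RIP table, in 3 Top3b-Y332F::eGFP samples (left) and 6 Top3b::eGFP samples (right); points are samples and bars are mean and SD. For mth all Y332F points (122 to 128) lie above all Top3b::eGFP points (53.3 to 98.9), and for Dab all Y332F points (494 to 665) lie below them (763 to 1710).

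The pathway or family around each gene was examined to see whether its other genes were low in Top3b26. The counts stand beside a background, over all features, of 23.5% called higher and 33.7% lower in Top3b26, 15.3% higher and 28.2% lower in Y332F, and 3.17% higher and 2.7% lower in delRGG. They also stand beside the maternal markers, of which 11 of 16 rose in Top3b26 (median 0.33) and 7 in Y332F (median 0.29), and the late markers, of which 17 of 17 tested fell in both. The part of these markers in the list counts was not tested. Of 12 other genes of the signal recognition particle and the translocon it docks to, 1 rose and 3 fell in Top3b26 against wild type, and 8 were not called, which is no more in either direction than the background. Srp9, the binding partner of Srp14 in the particle, had 16.1 CPM in Top3b26, against 24.4 CPM in wild type, and fell by 0.60 on the log2 scale (SE 0.13, edgeR adjusted p 0.00367). Sec61gamma, a channel subunit, fell by 0.62 (SE 0.13, edgeR adjusted p 0.0033) and Trp1 by 0.45 (SE 0.15, edgeR adjusted p 0.0255). Srp68 rose by 0.27 (SE 0.09, edgeR adjusted p 0.0209). The list's median was 0.09, against -0.04 over all features. In Y332F, where the choice required Srp14 to be present, 1 of the 12 was called, Trp1.

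In the methuselah family, with the ligand gene sun, 10 of 16 genes had enough counts to test. In Top3b26, 6 fell and 0 rose, and the median log2 fold change was -2.51. In Y332F 8 fell, and in delRGG 3. mthl9 changed most in Top3b26 (-3.61). mthl3 stood at 0.381 CPM in Top3b26, against 4.15 CPM in wild type (-3.41, SE 0.49, edgeR adjusted p 0.000794). mthl8 stood at 1.08 CPM, against 8.23 CPM (-2.92, SE 0.32, edgeR adjusted p 0.000152). sun, which encodes a peptide that activates mth, had 119 CPM in Top3b26 and 121 CPM in wild type and was not called (edgeR adjusted p 0.894). The late markers had medians of -4.33 in Top3b26, -3.30 in Y332F and -1.42 in delRGG, where 0 of the 17 tested were called.

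Of 14 Ras pathway genes around vap, 6 rose and 0 fell in Top3b26, with a median of 0.18, beside 0.33 for the maternal markers. Sos, the exchange factor that activates Ras, had 222 CPM in Top3b26 and 160 CPM in wild type (0.48, SE 0.12, edgeR adjusted p 0.0074). The kinase genes Dsor1 and Raf rose by 0.46 (SE 0.07, edgeR adjusted p 0.000864) and 0.40 (SE 0.07, edgeR adjusted p 0.00191). RasGAP1 and Nf1, which like vap inactivate Ras, were not called (-0.01, edgeR adjusted p 0.909, and -0.08, edgeR adjusted p 0.501). In Y332F 4 of the 14 rose and 0 fell.

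Around Dab, 13 genes were tested, 11 of Abl signalling, axon guidance and receptors and the lipophorin receptor genes LpR1 and LpR2. In Top3b26 3 rose, among them LpR1 and LpR2, 5 fell and 5 were not called, shares near the background in both directions. robo1, the Slit receptor gene, had 17.8 CPM in Top3b26, against 62.0 CPM in wild type, and fell by 1.79 (SE 0.41, edgeR adjusted p 0.005). sev, the receptor tyrosine kinase of the eye, was low throughout, at 0.284 ± 0.213 CPM in Top3b26 and 2.93 ± 1.43 CPM in wild type (SD, n = 3 each). It fell by 3.31 (SE 0.89, edgeR adjusted p 0.00959). fax, a partner of Abl, fell by 0.61 (SE 0.11, edgeR adjusted p 0.00202). Abl itself was not called (0.22, edgeR adjusted p 0.201). In Y332F, where the choice required Dab to be present, robo1 (-1.42, edgeR adjusted p 0.0195), sev (-2.73, edgeR adjusted p 0.0269) and fax (-0.33, edgeR adjusted p 0.0313) fell as well.

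Of 12 antiviral genes chosen around pst, 8 rose and 1 fell in Top3b26, with a median of 0.28, beside 0.33 for the maternal markers. ref(2)P, the fly p62 homologue known from sigma virus resistance, had 499 CPM in Top3b26 and 313 CPM in wild type (0.67, SE 0.09, edgeR adjusted p 0.000433). The JAK-STAT genes hop and dome rose by 0.37 (SE 0.08, edgeR adjusted p 0.00433) and 0.36 (SE 0.09, edgeR adjusted p 0.00641). The one that fell was AGO2, of RNA interference (-0.28, edgeR adjusted p 0.0175). In Y332F 3 rose and 1 fell.

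Of 5 other genes listed with CG11034 as like dipeptidyl peptidase 4, 1 rose and 3 fell in Top3b26. CG45002 entered the list through an older name, and its place in the family was not checked. CG45002 stood at 0.230 CPM in Top3b26, against 7.19 CPM in wild type (-4.90, SE 0.87, edgeR adjusted p 0.00203), Dpp10 at 0.233 CPM against 4.86 CPM (-4.27, SE 1.10, edgeR adjusted p 0.00772) and ome at 1.66 CPM against 24.9 CPM (-3.89, SE 0.84, edgeR adjusted p 0.00392). The median of the 5 genes, -3.89 in Top3b26, -2.14 in Y332F and -1.20 in delRGG, stands beside those of the late markers, -4.33, -3.30 and -1.42. In delRGG 0 of the 17 tested late markers were called. CG3744 rose by 0.35 (SE 0.08, edgeR adjusted p 0.00626). CG45002 and ome also fell in Y332F, to 0.534 CPM (-3.74, edgeR adjusted p 0.00886) for CG45002 and 3.09 CPM (-3.00, edgeR adjusted p 0.0157) for ome. CG11034 was chosen as near absent in Top3b26 and present in Y332F, so its contrast with these genes followed from the choice. It stood at 17.5 CPM in Y332F, against 21.9 CPM in wild type, and at 0.0400 CPM in Top3b26.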

How the data were processed

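Trizol extraction was followed by Lexogen CORALL total RNA libraries and paired-end Illumina sequencing, per the labels' protocols. The submitters' processing notes name bcl2fastq, HISAT2, featureCounts and DESeq2 without role or version; the genome build, annotation and strand setting are not given in the sources used here. For total RNA the authors deposited raw counts per gene and transposable element copy. For RIP they deposited a normalized signal (normalized counts per transcript), whose normalization is not given. Another 3 value columns of the RIP table matched no sample and were not used. In each RIP group 1 column was matched through a label that gives only a number.

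The main test of counts was that of edgeR 4.0.16 (R 4.3.3), with filterByExpr (minimum count 10), TMM, quasi-likelihood test over all 12 samples with genotype as factor, Benjamini-Hochberg adjustment over 10238 features, called under 0.05. Standard errors were approximated from the F statistic. RIP transcripts were summed per gene, divided by median-ratio factors (0.600 to 1.67) and tested with limma 3.58.1 on log2(value + 1) over genes averaging 10 or more; this scale understates the change of low genes. Column sums of the RIP values ran from 1414940 to 3429210, and the reads behind them are unknown. The tests were checked on simulated data with an assumed spread. There edgeR recovered 57% of 2-fold and 96% of 4-fold changes, and limma 100% of 4-fold changes in RIP. Each simulation gave all features the same spread, so these shares set no limit on how far a gene not called may differ. Alternatives were other normalizations and filters, DESeq2 1.42.0, fewer samples, a replicate block, other RIP scalings and pseudocounts, and single transcripts.

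The genes and lists were chosen with earlier results of these data known. Named besides the 6 genes are the tested ones among their 2 nearest neighbours on either side, overlapping genes, the 6 other features with the widest gap, Top3beta, and up to 3 called genes per list with the largest change in Top3b26. Other list genes (Srp68, sun, RasGAP1, Nf1, Abl, AGO2, CG3744, LpR1, LpR2, Yp1) and the features named at the gap in other genotypes were chosen after their values were seen. Symbols matched 17790 of the FlyBase genes. The sequences of the genes were not used here.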

Additional observations from a re-analysis of the deposited data

How the results depend on the processing

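The low level of the 6 genes in Top3b26 held under both other normalizations and with each Top3b26 or wild-type replicate left out. The genes were chosen as low in every Top3b26 sample and present in all others, so this outcome followed from the choice. The median level, 4.35% of wild type, was 4.08% with total-count normalization, and 4.13% to 4.48% with 1 replicate left out. The number of the 6 genes called was 1 to 2 in Y332F, 1 to 1 in delRGG, and 0 to 1 between delRGG and Y332F when 1 replicate was left out, and 1 to 2 of 4 in RIP. The late marker score as covariate, an alternative added after seeing the data, left 1 call in Y332F. DESeq2 gave 2 calls between delRGG and Y332F. With the 2 groups fitted alone, 0 were called in delRGG against wild type. In RIP, 0 were called on unscaled values and 0 among single transcripts, and 1, Dab, without the 2 samples whose columns are named in another way. The cause of these shifts was not tested. No value changed sign.

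The groups carry the same replicate numbers. With the replicate block, 2, 1 and 0 genes were called in the 3 total RNA comparisons, as without it, and 1 in RIP, where mth lost its call. Same-numbered samples correlated from -0.69 to 0.53 in deviations from their group means. Y332F and wild type gave -0.08, 0.53 and 0.47, and delRGG and wild type -0.69, -0.20 and -0.67. With so few samples per group, these values do not settle whether the numbers pair the samples. At 1 count per library, the level of CG11034 in Top3b26 is limited by depth.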
